A study of Mus musculus with 2 samples.

Results

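The acute phase and secreted antimicrobial genes followed here are Saa1, Saa2, Saa3, Hp, Orm1, Cp, Lcn2, Ltf and Ptx3. They were read from RNA-seq of colonies/organoids that mouse mammary basal cells formed in 3D culture. These 9 genes were looked up by symbol among the 49492 genes of the deposited count table, and all 9 were found. They were chosen by their counts with and without TNF-α in these same libraries, so the values below describe them and are not tested. Basal cells were sorted as lin- CD24+ CD29hi cells from mammary glands of adult wild-type (WT) female mice, embedded in matrix gel, and grown for 10 days with no TNF-α (control) or with recombinant mouse TNF-α at 10 ng/mL. Both cultures therefore shared genotype, cell source and the culture medium. How many mice or wells went into each library is not given in the sources used here.

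There was 1 library for each condition, and a difference between them cannot be set against the spread between cultures. Totals were 44462275 counts without TNF-α and 53487087 with it, and 1 count was worth 0.0224 and 0.0187 CPM (counts per 1e6 of the library size as scaled by edgeR's TMM method). Log2 ratios of TNF-α to control were taken from these CPM values (prior count 2). They cover the 20771 genes whose counts in both libraries summed to 10 or more, and a gene more than 2-fold apart is called higher or lower. A 95% exact (Clopper-Pearson) interval of the ratio follows in brackets and is computed without the prior count. It covers counting error only, and it treats reads as independent, which reads copied by PCR are not. Low counts were mostly even (2172 genes with 2 counts against 618 with 1 count in the control library), and for counts divided by 2 the intervals are wider. The basal keratin gene Krt14 had 229766 control and 259922 TNF-α counts, and the 8 basal marker genes summed to 11771 and 10770 CPM. The 13 luminal marker genes summed to 3963 CPM in the control and 2952 CPM with TNF-α, so luminal transcripts were present in both cultures.

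The acute phase response is the rapid change in secreted plasma proteins that follows infection or injury. It is best known from the liver, where cytokines of the IL-6, IL-1 and TNF families act through STAT3, NF-κB and C/EBP factors, but epithelia also make several of these proteins at the site of inflammation. Serum amyloid A proteins (Saa genes) bind lipid and retinol, haptoglobin (Hp) captures free hemoglobin, ceruloplasmin (Cp) carries copper and oxidizes iron, and orosomucoid (Orm1) carries small lipophilic molecules in plasma. Lipocalin 2 (Lcn2) takes iron-loaded siderophores away from bacteria, lactoferrin (Ltf) binds iron in milk and in neutrophil granules, and the long pentraxin Ptx3 tags microbes for complement and phagocytes.

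Across the 9 genes the TNF-α library held more transcripts, and most of the difference lay in Hp and Cp. Summed over all 9, the level was 344 CPM in the control and 1305 CPM with TNF-α, or 0.0345% and 0.13% of all counts, a ratio of 3.79. Of the 8 genes with enough counts to compare, Saa3, Hp, Saa2 and Cp were more than 2-fold higher and 0 were more than 2-fold lower. Among all 20771 genes compared, 8.56% were more than 2-fold higher and 6.62% more than 2-fold lower. Nothing is read from the 4 of 8 against this share, because the genes were listed for these values. The median log2 ratio of the 8 was 1.25, beside 0.0038 over all genes, whose 5th and 95th percentiles were -1.20 and 1.42. In these bulk libraries a higher level in each cell and a larger share of cells that express the gene cannot be told apart.

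**Figure D1:**
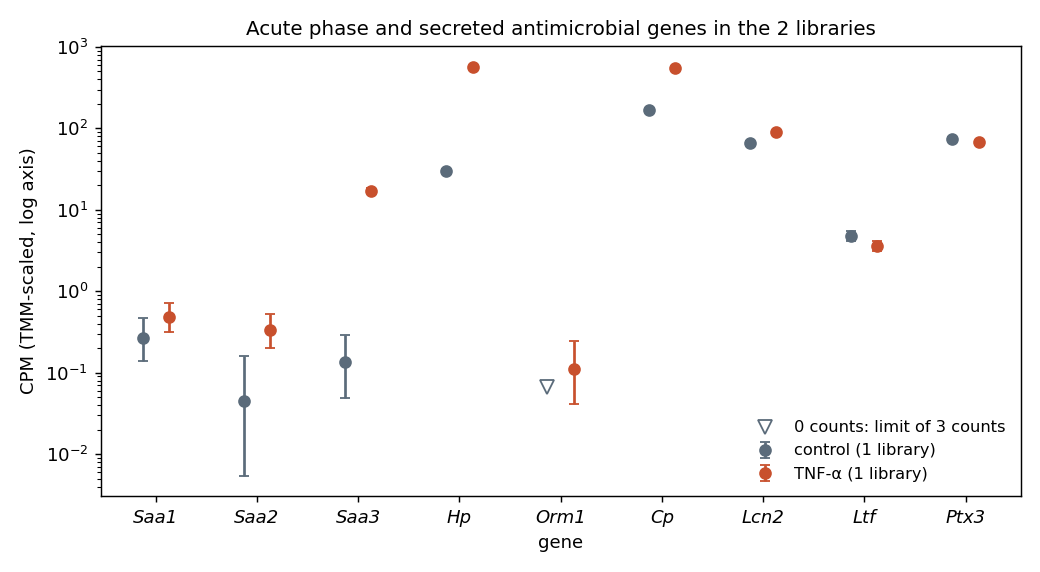
TMM-scaled CPM (log axis) of each of the 9 genes in the control and TNF-α libraries, 1 library each, with bars for the 95% Poisson interval of the count (counting error only) and an open triangle at the limit that a count of 0 allows (3 counts). Hp and Saa3 show the widest gaps between the libraries, while Lcn2, Ptx3 and Ltf sit close together.

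The serum amyloid A genes lie in 1 cluster on chromosome 7 of GRCm38, and they differed widely from each other. Saa3 is at chr7:46711998-46715700 on the minus strand, Saa1 at chr7:46740497-46742980 on the minus strand, and Saa2 at chr7:46751790-46754313 on the plus strand. The gap between Saa1 and Saa2 is 8.81 kb and that between Saa3 and Saa1 is 24.8 kb. Their coding sequences have the same length, 366 bases, and the first 120 bases are shown because they set apart Saa3, which had most of their counts with TNF-α. Capitals mark the bases that differ from Saa1 at the same position (5 in Saa2 and 48 in Saa3), read from the GENCODE M21 transcripts.
Saa1: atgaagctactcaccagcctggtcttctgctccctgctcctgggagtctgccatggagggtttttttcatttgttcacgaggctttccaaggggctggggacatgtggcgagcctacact
Saa2: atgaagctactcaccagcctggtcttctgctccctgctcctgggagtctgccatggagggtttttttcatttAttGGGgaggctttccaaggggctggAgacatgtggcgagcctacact
Saa3: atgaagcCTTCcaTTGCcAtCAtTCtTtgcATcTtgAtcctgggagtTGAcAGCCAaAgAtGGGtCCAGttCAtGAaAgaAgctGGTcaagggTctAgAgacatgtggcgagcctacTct
Over all 366 bases, compared position by position, Saa1 and Saa2 were identical at 348 bases (95.1%), Saa1 and Saa3 at 267 (73.0%), and Saa2 and Saa3 at 261 (71.3%).

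Saa3, the family member that is made mostly outside the liver, had 6 counts in the control library (0.135 CPM) and 914 with TNF-α (17.1 CPM). Its log2 ratio was 6.61 [5.86 to 8.44], and only 1 of the 20771 genes compared had a higher one. With counts divided by 2 the interval ran from 5.44 to 9.27. All annotated Saa3 transcripts together shared 4.15% of their 50-base stretches with other genes, mainly unrelated ones such as Malat1, and 0% of their 100-base stretches, so few reads could be taken for another gene at the longer length. The length of the reads is not given in the sources used here.

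Saa1 and Saa2, the members that the liver secretes into plasma, were near the detection limit in both libraries. Saa1 had 12 counts in the control (0.269 CPM) and 26 with TNF-α (0.487 CPM), a log2 ratio of 0.77 [-0.18 to 1.98], which was not called and whose interval includes 0. Saa2 had 2 counts in the control (0.0449 CPM) and 18 with TNF-α (0.337 CPM), with a log2 ratio of 2.14 [0.85 to 6.06]. The 2 control counts of Saa2 lie under the limit of 3 counts that an observed 0 would allow, and its ratio moved from 2.66 with a prior count of 0.5 to 1.58 with a prior count of 5. Over all annotated transcripts Saa1 and Saa2 share 31.5% and 30.0% of their 50-base stretches, almost all with each other, and over the coding transcripts 14.8% and 11.8%, so their counts are uncertain one by one. Summed, they had 14 control counts and 44 TNF-α counts, a log2 ratio of 1.29 [0.50 to 2.37]. Saa4, the constitutive member that lies between Saa3 and Saa1, had 2 counts in the control and 0 with TNF-α, and no ratio is given for it.

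Of the 9 genes, Hp had the most counts with TNF-α. The gene, at chr8:109575128-109579172 on the minus strand, had 1340 counts in the control library (30.1 CPM) and 30413 with TNF-α (570 CPM). The log2 ratio was 4.24 [4.17 to 4.32], an 18.9-fold difference and rank 37 from the highest of the 20771 genes. None of the 50-base stretches of its transcripts occurred in another gene, so its reads are not shared by sequence. Levels in TPM, which divide the counts by the deposited exon length and set their sum to 1e6, place Hp at rank 2910 in the control library with 52.8 TPM and at rank 124 with TNF-α with 970 TPM.

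Cp was abundant in both libraries and about 3-fold higher with TNF-α. The gene spans chr3:19957054-20009145 on the plus strand, and its counts were 7461 in the control (167 CPM) and 29569 with TNF-α (554 CPM). The log2 ratio was 1.73 [1.69 to 1.76], and 3.66% of the genes compared had a higher one. Of its 9566 exon bases, 108 overlap exons of Hps3 on the opposite strand, and without the strand setting of the counts those reads cannot be assigned to either gene. The acute phase gene Orm1 at chr4:63344560-63348163 had 0 counts in the control and 6 with TNF-α. With under 10 counts it was left out of the comparison, and its counting interval, which begins at a log2 ratio of -0.02, includes 0. Orm2 and Orm3, which are 89.9% and 86.0% identical to Orm1 in coding sequence, had 0 counts in both libraries.

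Lcn2, Ltf and Ptx3 were expressed without TNF-α, and each was less than 2-fold apart between the libraries. Lcn2 (chr2:32384633-32388252, minus strand) had 2983 counts in the control (66.9 CPM) and 4819 with TNF-α (90.3 CPM). The log2 ratio was 0.43 [0.37 to 0.50], under the 2-fold call, and 20.0% of all genes compared had a higher one. Ptx3 (chr3:66219910-66225805, plus strand) had 3331 control counts (74.7 CPM) and 3656 TNF-α counts (68.5 CPM), so that after scaling its log2 ratio was -0.13 [-0.19 to -0.06]. Ptx3 lies within the span of Veph1 on the opposite strand and shares 0 exon bases with it.

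Ltf (chr9:111019271-111042767, plus strand) was less abundant than Lcn2 and Ptx3, with 212 counts in the control (4.76 CPM) and 193 with TNF-α (3.62 CPM). Its log2 ratio was -0.39 [-0.68 to -0.11], and with counts divided by 2 the interval ran from -0.82 to 0.01 and included 0. Lcn2, Ltf and Ptx3 share none of their 50-base stretches with another gene.

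**Figure D2:**
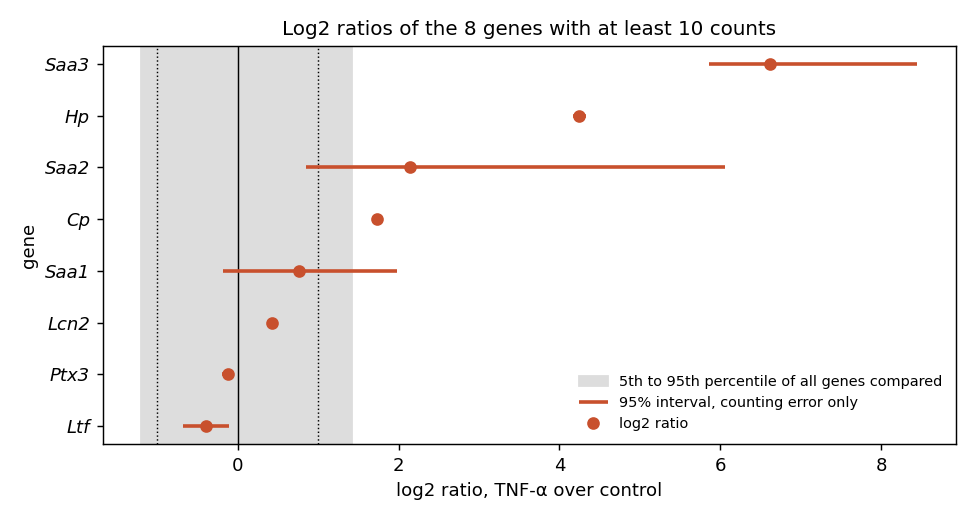
Log2 ratio of TNF-α to control for the 8 genes compared, with 95% intervals for counting error only, over the 5th to 95th percentile of all genes compared (shaded) and with the 2-fold lines dotted. Saa3, Hp, Saa2 and Cp lie to the right of the shaded range, and Saa1, Lcn2, Ptx3 and Ltf lie inside it.

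Per length, the order of the genes was different in the 2 libraries. In the control library Ptx3 had 78.6 TPM and Lcn2 had 72.0 TPM, followed by Hp with 52.8 and Cp with 49.4 TPM. With TNF-α Hp led with 970 TPM, followed by Cp with 158, Lcn2 with 94.1, Ptx3 with 69.8 and Saa3 with 18.0 TPM. Hp thus took 20.5% of the summed TPM of the 9 genes in the control and 73.8% with TNF-α. Ltf was at 3.89 and 2.87 TPM, and Saa1, Saa2 and Orm1 stayed under 1 TPM in both libraries.

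The order in the control rests on the lengths used. The deposited exon lengths join all annotated transcripts of a gene, such as 9566 bases for Cp and 2623 for Lcn2, whereas the transcripts with the longest coding sequence have 4564 and 915 bases. By exon length the control level of Lcn2 was 0.916 times that of Ptx3 and that of Cp was 0.935 times that of Hp. By the length of the coding transcript, a choice made after seeing the data, these ratios were 1.86 and 1.64, so that neighbours in the control order changed places. The share of the summed level that Hp held was then 12.8% in the control and 59.4% with TNF-α. With TNF-α Hp stayed above Cp by both lengths, at ratios of Cp to Hp of 0.163 and 0.286.

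**Figure D3:**
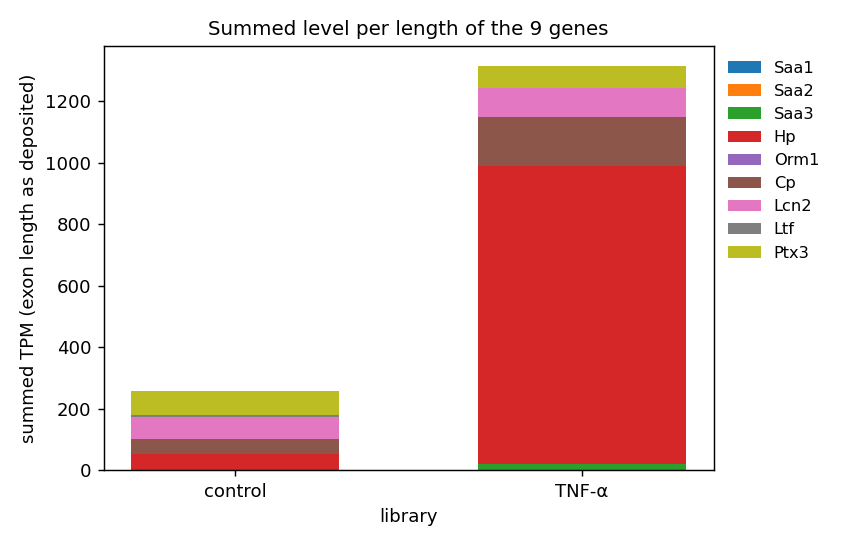
Summed level per length (TPM, exon length as deposited) of the 9 genes in the control and TNF-α libraries, stacked by gene and without error bars because there is 1 library for each bar. Hp makes up 20.5% of the control bar and 73.8% of the TNF-α bar, while Ptx3 goes from 78.6 to 69.8 TPM and Lcn2 from 72.0 to 94.1 TPM.

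The sequence before the start site was read for the genes with an entry in the RefSeq promoter table (GRCm38.p6), which held 7 of the 9 genes and neither Hp nor Orm1. The windows of the 3 Saa genes and of Ptx3 are printed 5′ to 3′ on the strand of the gene, since they set genes with a large ratio beside genes with a small one. Those of Saa3 and Saa2 end where the annotated gene begins. Capitals mark 8-base matches to TTGCNNAA, a C/EBP motif, and 10-base matches to a wide NF-κB motif (GGG, any 5 bases, CC), both searched on both strands.
Saa3, chr7:46715701-46715926, minus strand: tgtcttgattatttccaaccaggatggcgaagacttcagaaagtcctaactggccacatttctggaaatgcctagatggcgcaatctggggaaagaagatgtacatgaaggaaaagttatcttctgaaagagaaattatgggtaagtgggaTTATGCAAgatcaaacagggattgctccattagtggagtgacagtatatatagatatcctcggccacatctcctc
Saa1, chr7:46742981-46743230, minus strand: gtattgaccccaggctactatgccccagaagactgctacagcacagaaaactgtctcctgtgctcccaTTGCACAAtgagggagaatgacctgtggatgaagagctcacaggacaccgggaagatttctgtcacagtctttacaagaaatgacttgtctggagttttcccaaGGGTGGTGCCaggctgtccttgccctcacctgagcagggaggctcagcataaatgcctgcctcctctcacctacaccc
Saa2, chr7:46751583-46751789, plus strand: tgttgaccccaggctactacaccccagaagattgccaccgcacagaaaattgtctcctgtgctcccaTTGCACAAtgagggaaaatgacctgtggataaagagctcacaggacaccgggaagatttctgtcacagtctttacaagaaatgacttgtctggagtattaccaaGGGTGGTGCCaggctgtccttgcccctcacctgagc
Ptx3, chr3:66219637-66219886, plus strand: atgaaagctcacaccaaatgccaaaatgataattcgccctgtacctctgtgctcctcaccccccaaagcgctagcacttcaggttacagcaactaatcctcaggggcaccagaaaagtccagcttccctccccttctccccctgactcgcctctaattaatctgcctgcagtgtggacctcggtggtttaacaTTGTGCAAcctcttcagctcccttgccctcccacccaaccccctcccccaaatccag

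The C/EBP letters were found within 250 bases before a start site in all 7 of the genes with a window, whether or not the gene was called. Of all 32851 windows of that length, 9.56% held them, and 10.8% of all 27025 genes had such a window. In Cp the window before the annotated gene held none of the letters searched. Its matches lie in a window that reaches into the gene. Distances run from the start site of the promoter table. The first base of the match lay 99 bases before the start in Saa3, 182 in Saa1, 183 in Saa2, 70 in Cp, 216 in Lcn2, 57 in Ptx3 and 75 in Ltf. For Saa3 and Saa2 that site lies inside the annotated gene, and the windows printed above stop 24 and 43 bases before it. The wide NF-κB letters occurred in 5 of the 7 (Saa1, Saa2, Cp, Lcn2 and Ltf), beside 45.8% of all windows and 48.7% of all genes. They were not found in the windows of Saa3 and Ptx3. The narrower NF-κB form (GGG, any 4 bases, TCC), every match of which is also a match to the wide form, occurred in Lcn2 alone, beside 16.5% of all windows. The STAT letters TTCNNNGAA were in 0 of the 7 (7.02% of windows), and TATAAA was in Cp alone (12.4%). A match describes these letters only, and its absence from a window says nothing of the factor. The 250 bases of Saa1 and Saa2 were 94.8% identical, whereas Saa3 shared 44.7% with Saa1.

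Genes beside the 9 mostly had small ratios. Within 100 kb lay 58 other genes, of which 33 had enough counts, with a median log2 ratio of 0.04 and a range from -0.87 (Gm45309) to 1.43 (Tph1). Tph1, an enzyme gene of serotonin synthesis that begins 39.5 kb downstream of Saa3, was the only one called, with 20 counts in the control and 68 with TNF-α. Saal1, 1.32 kb downstream of Saa3, had 628 and 899 counts and a log2 ratio of 0.26. Txnl4b, 1.08 kb downstream of Hp, had 132 and 211 counts and a log2 ratio of 0.41.

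**Figure D4:**
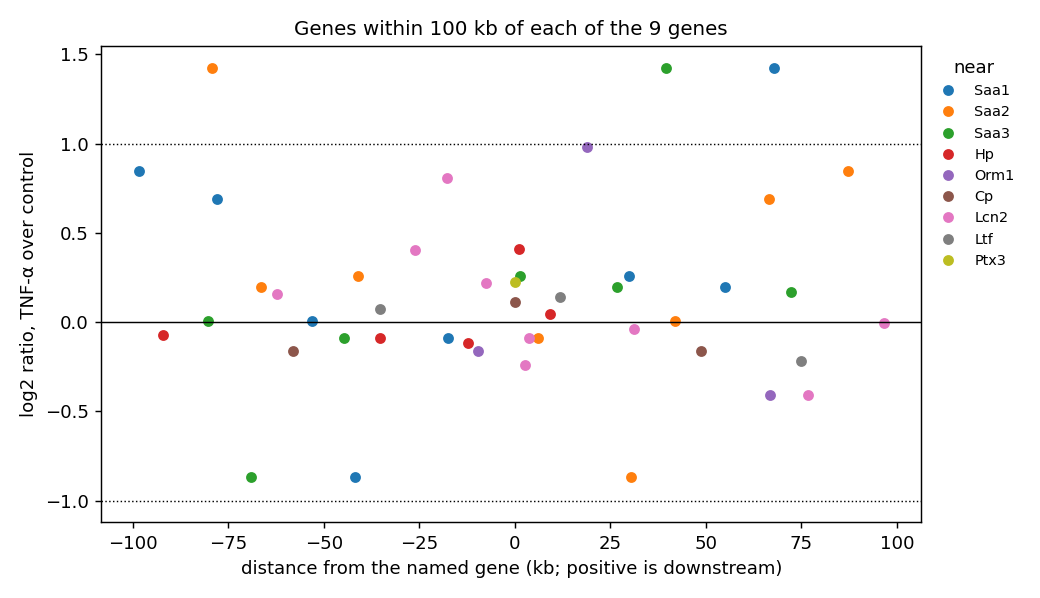
Log2 ratio of TNF-α to control for genes within 100 kb of each of the 9 genes against their distance in kb (positive is downstream on the strand of the named gene), with the 9 genes left out and genes near the Saa cluster drawn once for each Saa gene they neighbour. Between the dotted 2-fold lines lie all genes but Tph1, at 1.43.

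The regulators that act before these genes were described from a list of 35 inducers and transcription factors. Of the 32 with enough counts, 6 were more than 2-fold higher and 3 lower, and the median log2 ratio was 0.08. Over all genes compared, 8.56% were more than 2-fold higher and 6.62% more than 2-fold lower. This list and the gene lists below were chosen with earlier results of these data known. Nothing is read from their counts against these shares. Of the 6 higher genes, 5 belong to the NF-κB pathway. Tnfaip3, which ends NF-κB signalling, had 743 control and 4875 TNF-α counts (log2 ratio 2.45), and the inhibitor gene Nfkbia had 2156 and 10342 (interval 1.94 to 2.07). Bcl3, Relb and Nfkb2 had log2 ratios of 1.70, 1.46 and 1.27, and Il1rap, the co-receptor of IL-1, had 1.47. The NF-κB subunit genes Rela and Nfkb1 were not called, with log2 ratios of -0.10 and 0.08. The lower genes were Il6ra, the IL-6 receptor gene, with 447 and 144 counts (-1.88), Esr1, the estrogen receptor gene (-1.48), and Il1b, with 13 and 6 counts (-1.12) and an interval that includes 0. Il6 had 4 and 3 counts, and Il6st, the co-receptor gene of the IL-6 family, was not called at 0.62. Stat3, Cebpb and Cebpd were not called either, with log2 ratios of 0.55, 0.04 and 0.26.

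Among 22 other acute phase genes, 18 could be compared, with a median log2 ratio of 0.58. Of these, 6 were more than 2-fold higher and 0 more than 2-fold lower, beside 8.56% and 6.62% of all genes. Lbp, whose product hands bacterial lipopolysaccharide to its receptors, had 6 control and 1000 TNF-α counts. Its log2 ratio of 6.74 [5.99 to 8.57] is next to that of Saa3. Il1rn, the IL-1 receptor antagonist gene, had 340 and 1384 counts (1.76), Serpina3n, a serine protease inhibitor gene, 55 and 203 (1.59), and Cd14, the lipopolysaccharide co-receptor gene, 276 and 756 (1.19). Apcs (2 and 8 counts) and A2m (12 and 34) were called on few counts, and the interval of Apcs includes 0. The fibrinogen genes, which are classic liver acute phase genes, were not called, with log2 ratios of -0.38 for Fga, -0.43 for Fgb and 0.70 for Fgg. Crp had the lowest log2 ratio of the list, -0.60, on 6 and 4 counts.

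Of 6 genes whose plasma proteins go down in the acute phase, 5 were compared. Of these, 1 was called higher and 2 lower, beside 8.56% and 6.62% of all genes. Trf, the transferrin gene, had 7737 control and 28764 TNF-α counts, a log2 ratio of 1.63 [1.60 to 1.67], which is the opposite sign to its liver response. Ttr, the transthyretin gene, had 85 and 10 counts (-3.09), and Apoa1 had 11 and 4 (-1.31), with an interval that includes 0.

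The other secreted antimicrobial genes lay on both sides. Of 33 listed, 21 had enough counts, and their median log2 ratio was -0.22. Of the 21, 4 were more than 2-fold higher and 3 lower, beside 8.56% and 6.62% of all genes. Sftpd, a collectin gene, had 18 control and 455 TNF-α counts (4.27 [3.72 to 5.17]), and Chil1, a chitinase-like gene, had 2541 and 20795 (2.77 [2.71 to 2.83]). Dmbt1, a scavenger-receptor gene whose product binds bacteria, lay at the other end, with 27425 and 1598 counts (-4.36 [-4.43 to -4.29]). Lpo and Camp were also called higher and S100a7a and Defb1 lower, each with under 100 counts in both libraries. Slpi and Wfdc18, protease inhibitor genes of the WAP domain family, were highly counted in both libraries. Slpi had 25839 and 19881 counts (-0.64), and Wfdc18 had 23849 and 27861 (-0.04).

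Among 20 receptors and partners of the 9 proteins, 16 were compared, and the median log2 ratio was -0.46. Of the 16, 2 were more than 2-fold higher and 3 lower, beside 8.56% and 6.62% of all genes. Mmp9, the gelatinase that Lcn2 can bind, had 97 control and 804 TNF-α counts (2.77 [2.49 to 3.11]), and Tlr2, a receptor for bacterial lipoproteins and for serum amyloid A, had 296 and 967 (1.44). Slc40a1, the iron exporter that works with Cp, had 2500 and 1290 counts (-1.21). C1qa was called lower on 8 and 3 counts, with an interval that includes 0. Slc22a17, a receptor gene for Lcn2, was not called at -0.75, and Cd163, the scavenger receptor gene for haptoglobin bound to hemoglobin, had 24 and 17 counts.

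Of 28 relatives of the 9 by protein family, 14 were compared, and the median log2 ratio was -0.26. Of the 14, 4 were more than 2-fold higher and 3 lower, beside 8.56% and 6.62% of all genes. Beside Trf and Apcs, F5, the coagulation factor V gene and a relative of Cp, had 1224 and 3767 counts (1.36), and the pentraxin gene Nptx1 had 30 and 76 (1.04). Apod and Ptgds, lipocalin genes like Lcn2, had log2 ratios of -1.17 and -1.20, and Nptx2 had 22 and 8 counts (-1.49).

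**Figure D5:**
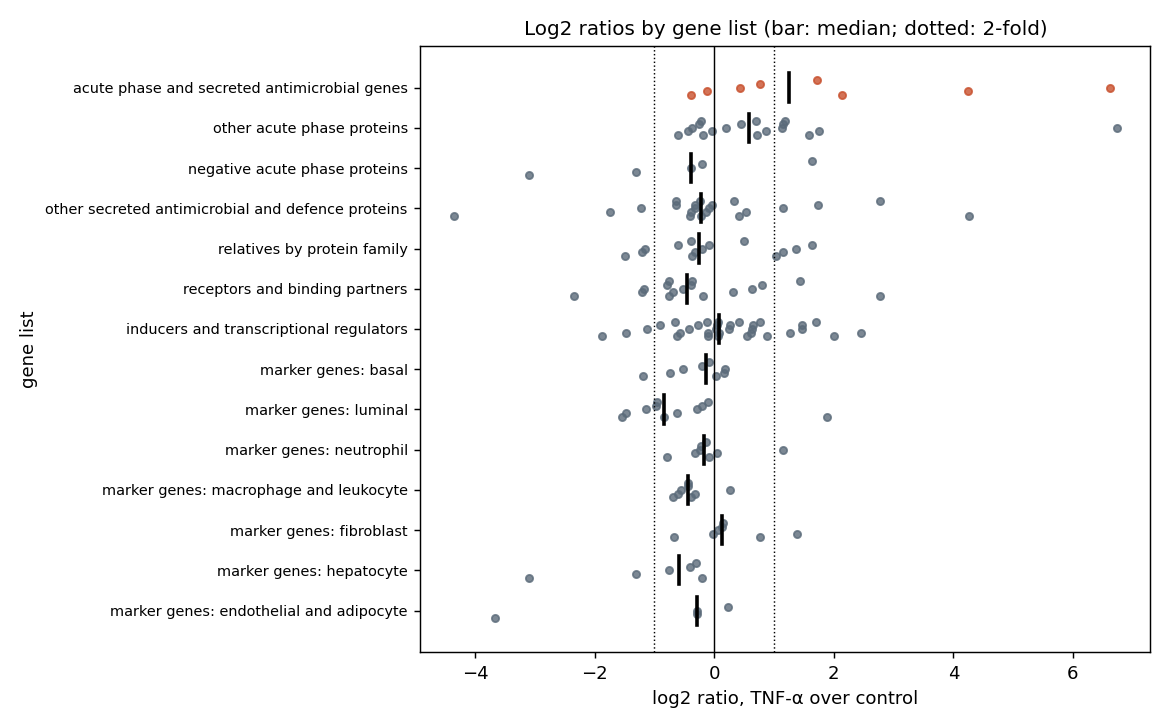
Log2 ratio of TNF-α to control for each gene with at least 10 summed counts (points), by gene list, with a bar at each list's median and dotted 2-fold lines. The top row shows the 8 acute phase and secreted antimicrobial genes, median 1.25, and the other acute phase proteins follow with a median of 0.58.

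Markers of hepatocytes, neutrophils and leukocytes had low sums, while those of fibroblasts did not. The 7 hepatocyte markers, of interest because the liver is the main source of Hp, Orm1, Saa1 and Saa2, summed to 13.9 CPM in the control and 9.63 CPM with TNF-α, and Alb had 330 and 344 counts. The 11 neutrophil markers, of interest because Lcn2, Ltf and Ptx3 are granule proteins, summed to 18.9 and 16.4 CPM, and Ly6g was at 0 in both libraries. The most counted were S100a9 (454 control and 468 TNF-α counts) and Ngp (270 and 258). Both had more counts than Ltf (212 and 193), so the neutrophil markers were not low beside that gene. Of 8 neutrophil markers compared, 2 had a log2 ratio above 0, and Camp, with 14 and 40 counts, was the 1 called. The 11 macrophage and leukocyte markers summed to 9.40 and 7.22 CPM. The most counted were Lyz2 (114 and 109 counts), Csf1r (92 and 81) and Cd68 (83 and 75). Ptprc, with 26 and 38 counts, was the only 1 of 8 compared with a log2 ratio above 0. Adgre1 had 0 and 2 counts and Cd3e was at 0 in both. The 7 fibroblast markers summed to 528 and 535 CPM over genes of unlike length, and the one with the highest ratio, Dcn, had 184 and 582 counts (1.39). The 6 endothelial and adipocyte markers summed to 9.47 and 6.43 CPM, and Lep had 127 and 10 counts (-3.66).

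Among luminal markers 1 of 11 compared lay above 0, with a median log2 ratio of -0.84, and Pgr had the lowest ratio at -1.54. Csn3, a milk casein gene, was the exception at 1.88, while Csn2 had 0 counts in both libraries and Wap 0 and 1. Basal markers had a median log2 ratio of -0.14, from -1.19 for Oxtr to 0.18 for Mylk. Whether the mix of basal and luminal cells had a part in the ratios of Hp, Cp and Saa3 was not tested.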

How the data were processed

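RNA-seq libraries (SMARTER mRNA-Seq kit per the labels) were made from 1 control and 1 TNF-α culture of mouse mammary basal cells. The authors deposited raw read counts per gene with exon coordinates and summed exon length. The submitters' processing notes name GRCm38 and mm10. The aligner, counting tool, strand setting, read length and filters are not given in the sources used here. The series text speaks of a microarray, while the file holds sequencing counts.

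From the deposited counts, TMM sizes were computed with edgeR 4.0.16 (R 4.3.3) on genes with at least 10 summed counts, and the scaled size with TNF-α was 1.197 times that without. CPM, TPM (deposited exon length), log2 ratios (prior count 2) and exact 95% intervals followed, and the script was tested on simulated data. With 1 library for each group there are no residual degrees of freedom for a quasi-likelihood fit, and no p-value is given. Python 3.11.15, pandas 2.3.3, numpy 2.4.6, Biopython 1.88 and matplotlib 3.10.9 were used. Coordinates of the 9 genes equal those of GENCODE M21. Promoter windows and the transcripts were read from RefSeq and GENCODE tables, and motifs were searched in the 250 bases before each start site.

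Named genes are the 9 genes, the highest and lowest log2 ratio of each list, list genes with at least 200 counts called more than 2-fold, and called genes within 100 kb. Of the genes this rule names, 1 is not reported here. Further genes were named after their values were seen. The members and the gene lists were chosen with earlier results of these data known. Tf and Meltf were found under the symbols Trf and Mfi2. Alternatives were total counts, DESeq2 (1.42.0) size factors, upper quartile scaling, removal of 223 ribosomal RNA and mitochondrial genes, other prior counts, halved counts, other filters and other folds.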

Additional observations from a re-analysis of the deposited data

How the results depend on the processing

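With scaling by total counts, by DESeq2 or by the upper quartile, removal of ribosomal RNA and mitochondrial genes, prior counts of 0.5 and 5, and halved counts, the called genes were Saa2, Saa3, Hp and Cp each time. Without a filter on low counts Orm1 was added, and above a 1.5-fold threshold Saa1 was added. With at least 1 CPM in a library Saa3, Hp and Cp were called, and above 4-fold Saa2, Saa3 and Hp. None of the 9 genes was called lower in any of these settings. The median log2 ratio of the genes compared ranged from 1.08 (at least 1 CPM) to 1.73 (no filter). Over the whole table, 1777 genes were called higher and 1375 lower. These counts were 836 and 658 with at least 1 CPM, 3210 and 2846 above 1.5-fold, 540 and 342 above 4-fold, and 2679 and 2996 without a filter. No paired analysis was possible because each group has 1 library. The same limit leaves the spread between cultures unmeasured, and at this depth a gene with under 10 counts, such as Orm1, could not be compared. With the counts of Saa1 and Saa2 summed, the log2 ratio was 1.29, between 0.77 for Saa1 and 2.14 for Saa2 alone.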
